A study of Mus musculus with 9 samples.

Results

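The genes described here are 32 genes of the unfolded protein response, the programme by which a cell answers unfolded protein in the endoplasmic reticulum (ER). They were chosen by name from the symbols of a table of 27179 genes, and all 32 had a mean of at least 10 normalized counts, the minimum for testing, which 12993 genes reached. They form 4 branches: 14 ER chaperones and foldases, 7 genes of ER-associated degradation, 4 sensors and Xbp1, and 7 genes of the ATF4 branch. Livers of wild-type C57BL/6J mice were profiled by bulk sequencing of poly(A) RNA from the m-lobe. All animals, injected at 17 months of age and sampled 3 weeks later, carried AAV8 with saCas9, a small Cas9 nuclease, under the hepatocyte promoter TBG and a guide RNA under U6. In the control group the guide was directed at Rosa26, a safe-harbour locus (sgRosa26, n = 4), and in the other at Ccnd1, the gene of cyclin D1 (sgCcnd1, n = 5). Controls therefore carried the same vector and nuclease with another guide. TBG drives the nuclease in hepatocytes, whereas RNA of all cell types of the lobe was sequenced. In such bulk samples fewer cells of a type and less RNA per cell cannot be told apart. Letters in the order of the deposited columns name the libraries, A to D in the control group and E to I in the group with the Ccnd1 guide.

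Libraries held 10.8 to 20.2 M reads assigned to genes, the fewest in I. Ccnd1 stood at 744 ± 110 normalized counts in sgRosa26 (SD, n = 4) and at 362 ± 40.6 in sgCcnd1 (SD, n = 5), and all 5 sgCcnd1 libraries lay below the lowest control. Library H of the sgCcnd1 group had 2.00 normalized counts of the Y-linked gene Ddx3y against 809.9 to 1154 in the other 8 libraries, so the counts of members and lists are also given without H. All 14 hepatocyte markers listed were detected above the minimum. Of 10 T and NK cell markers tested 6 were lower at an unadjusted limma p under 0.05, as were 5 of 14 for macrophages and 5 of 12 for stellate cells. Without H these 3 counts were 2, 5 and 2. Of endothelial markers 0 of 12 were lower and of cholangiocyte markers 1 of 8, also without H. Over all genes tested, 5.74% were lower at that threshold, or 4.28% without H. The T and NK cell markers had a median log2 fold change of -1.13 in sgCcnd1, with summed levels of 152 to 410.2 in sgRosa26 and 70.0 to 281 in sgCcnd1. Those of B and plasma cells, of which the latter are rich in ER, had 2 of 12 lower, also without H, and a median of -0.45, with sums of 1895 to 4492 in sgRosa26 and 1539.9 to 4078 in sgCcnd1, and in each of these lists 0 markers were at 0 in all libraries. The part of these cells in the results below was not tested.

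The 3 membrane proteins that sense unfolded protein in the ER are IRE1α (gene Ern1), PERK (Eif2ak3) and ATF6. IRE1α splices the Xbp1 transcript, and XBP1 and the released part of ATF6 then activate genes of chaperones and of the machinery that sends misfolded protein to the proteasome. PERK phosphorylates eIF2α, which slows translation in general and favours translation of ATF4, an activator of amino acid synthesis and transport genes and of the pro-apoptotic factor CHOP (Ddit3). Hepatocytes secrete most plasma proteins and hold an extensive ER, and in the liver these genes are known to follow feeding and the time of day. Gene-level counts do not separate spliced from unspliced Xbp1, nor translation of Atf4 from its RNA level.

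Of the 32 members, 0 passed an adjusted p of 0.05 in either direction with limma, and 0 passed with edgeR or with DESeq2 on the recovered reads. Over all genes tested, limma called 0% higher and 0.0077% lower at that threshold, edgeR likewise 0% and 0.0077%, and DESeq2 0.262% and 0.539%. At an unadjusted limma p under 0.05, 6 members were higher in sgCcnd1 and 0 lower, where 5.22% of all genes were higher and 5.74% lower. Those 6, 18.8% of the members, were Herpud1, Derl2, Edem1, Trib3, Chac1 and Canx. Groups did not overlap for 2 members, Derl2 and Canx, both higher, against 1.92% of all genes higher and 1.97% lower. The log2 fold change was above 0 for 23 of 32 members, with a median of 0.11, against 52.9% of all genes and a median of 0.01. The count of 6 was 3 without library C (Herpud1, Trib3 and Chac1; 5.4% of all genes higher) and 3 without library G (Canx, Herpud1 and Derl2; 4.23%). It was 4 without H (Herpud1, Derl2, Trib3 and Chac1), where 3.72% of all genes were higher. Also without H, 22 of 32 members were above 0, against 52.9% of all genes, and groups did not overlap for Derl2 and Canx, against 2.39% of all genes higher. Without library I it was again 6, with Hspa5 and Hyou1 in place of Edem1 and Canx, where 3.89% of all genes were higher. Herpud1 was under an unadjusted p of 0.05 in all 21 alternatives that were run, Chac1, Derl2 and Trib3 in 19 each, and Canx and Edem1 in 8 each.

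**Figure D1:**
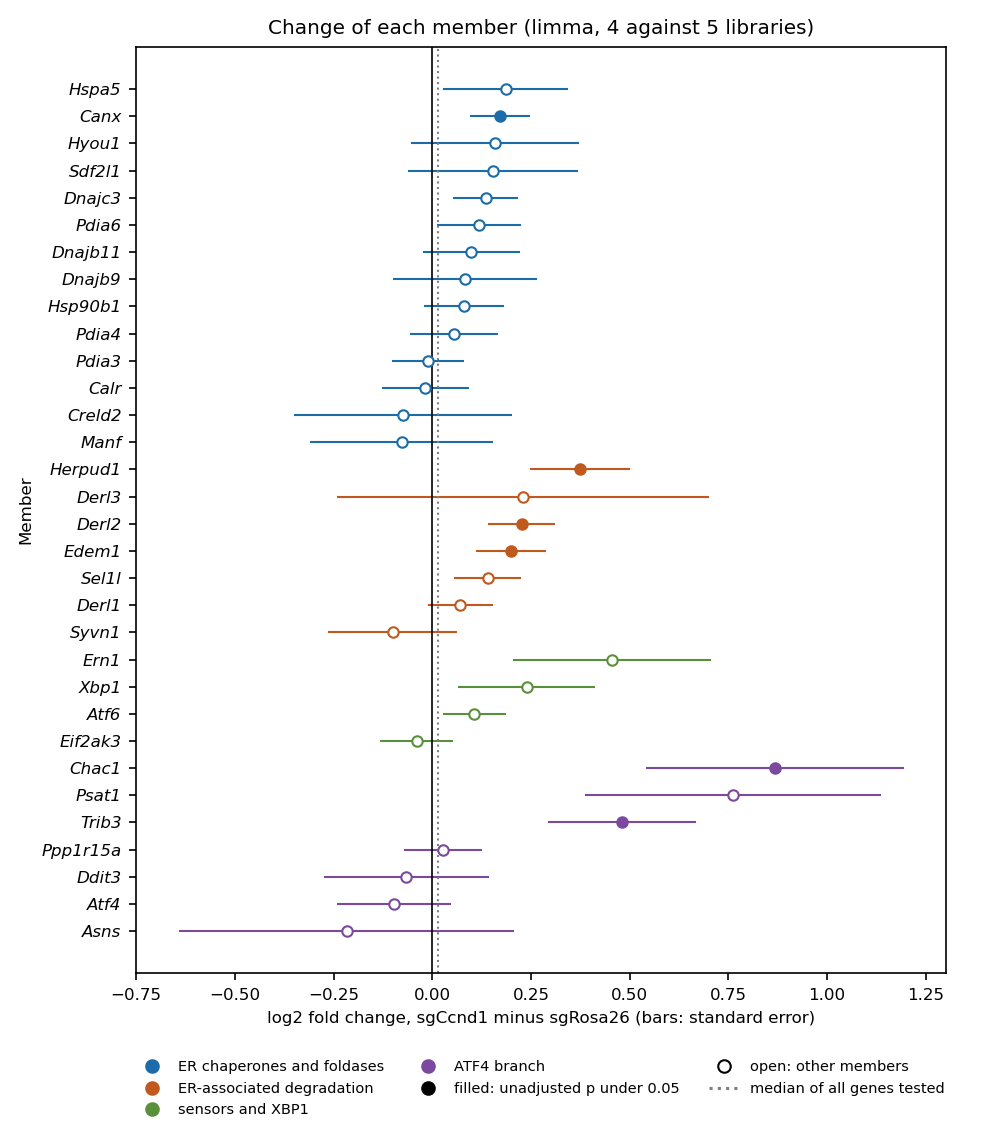
Log2 fold change (sgCcnd1 minus sgRosa26, x axis) of each of the 32 members (y axis), with bars for the limma standard error, colours for the 4 branches and a dotted line at the median of all genes tested. Filled points mark the 6 members with an unadjusted p under 0.05, which all lie above 0, and Chac1 has the highest estimate at 0.87.

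The branches differed in their medians, which are descriptions with no test of the difference between branches. Over all genes tested, 52.9% were above 0 and 5.22% were higher at an unadjusted p under 0.05, or 3.72% without H. For the chaperones and foldases the median log2 fold change was 0.09, with 10 of 14 members above 0 and 1 higher at an unadjusted p under 0.05. ER-associated degradation genes had a median of 0.20, with 6 of 7 above 0 and 3 higher at that threshold. The 4 genes of the sensors and Xbp1 had a median of 0.17, with 3 above 0 and 0 past the threshold. In the ATF4 branch the median was 0.03, with 4 of 7 above 0 and 2 higher at the threshold. Without H, unadjusted higher counts were 0 of the chaperones, 2 of the degradation genes, 0 of the sensors and Xbp1 and 2 of the ATF4 branch. Single libraries and scalings moved these medians by over 1.5 times. With quantile normalization the medians were 0.029 for the chaperones, 0.13 for the degradation genes and 0.0997 for the sensors and Xbp1, and with a common 75th percentile the ATF4 median was 0.0039. Degradation genes had a median of 0.13 also with edgeR and with DESeq2. Without library C the chaperone median was -0.0045 and the degradation median 0.096. The chaperone median was 0.047 without F, 0.14 without A and 0.15 without I. The median of sensors and Xbp1 was 0.11 without B and also 0.11 without H. In the ATF4 branch it was 0.0069 without H, 0.014 without G, 0.016 without F, 0.066 without C, 0.072 without I and 0.088 without D. With H left out of edgeR and DESeq2, the medians were 0.097 and 0.10 for the sensors and Xbp1, 0.00064 and 0.0078 for the ATF4 branch, and 0.12 for the degradation genes with DESeq2. Array weights gave 0.14 for the chaperones.

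Elements of these pathways are known from promoters, and the matches in the members are printed to show which members share them. Promoter windows (RefSeq, GRCm38.p6, 250 bases before to 50 after the start) were found for 28 of the 32 members. The ER stress element ERSE, bound by ATF6 together with NF-Y, was searched on both strands as CCAAT and CCACG separated by any 9 bases. It matched in 9 of 28 members, 7 of them chaperones and 2 degradation genes, against 0.119% of all 32851 windows. The element was defined on genes of this kind, so its presence is a property of the list and no result of the experiment. Each match is given in the direction of the motif, 5′ to 3′, with the paired CCAAT and CCACG in capitals, and positions count from the start of transcription with negative values upstream.
Hspa5 (-65 to -47, chr2:34772025-34772043): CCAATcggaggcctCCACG
Hsp90b1 (-212 to -194, chr10:86705638-86705656): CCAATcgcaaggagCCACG
Hsp90b1 (-107 to -89, chr10:86705533-86705551): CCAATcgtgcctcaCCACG
Pdia6 (-98 to -80, chr12:17266491-17266509): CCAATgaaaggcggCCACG
Calr (-162 to -144, chr8:84847075-84847093): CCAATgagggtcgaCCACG
Canx (-145 to -127, chr11:50325800-50325818): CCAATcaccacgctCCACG
Dnajc3 (-105 to -87, chr14:118937827-118937845): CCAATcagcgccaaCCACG
Creld2 (-126 to -108, chr15:88819520-88819538): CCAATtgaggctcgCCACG
Syvn1 (-44 to -26, chr19:6046532-6046550): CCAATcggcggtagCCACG
Derl3 (-156 to -138, chr10:75893242-75893260): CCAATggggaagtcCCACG

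The 9 genes with this element had log2 fold changes from -0.10 (Syvn1) to 0.23 (Derl3), with a median of 0.12 and 6 above 0. The Derl3 value is uncertain, since its mean normalized counts were 30.4 and 30.2 in the groups, its log2 fold change with DESeq2 was 0.0019, and leaving out 1 library gave -0.069 (without C) to 0.73 (without A). A shorter variant, ERSE-II, searched as ATTGG, any base and CCACG, matched in 2 members, Herpud1 and Dnajb11, and in 0.0365% of all windows. The C/EBP-ATF element that ATF4 binds, searched as TGATGNAA on both strands like the others, matched in 4 of 28 members and in 3.97% of all windows. These were Herpud1 and, in the ATF4 branch, Chac1, Trib3 and Asns. The XBP1 and ATF6 core TGACGTG matched only in Hspa5 among the members and in 2.01% of all windows. Herpud1 was thus the member whose window held both an ER stress element and a C/EBP-ATF element, and no match overlapped another. Below are the ERSE-II and C/EBP-ATF matches in the direction of the motif, with the fixed letters in capitals.
Herpud1 (ERSE-II, -52 to -42, chr8:94386377-94386387): ATTGGgCCACG
Dnajb11 (ERSE-II, 7 to 17, chr16:22857852-22857862): ATTGGcCCACG
Herpud1 (C/EBP-ATF, -112 to -105, chr8:94386317-94386324): TGATGcAA
Chac1 (C/EBP-ATF, -193 to -186, chr2:119351049-119351056): TGATGcAA
Trib3 (C/EBP-ATF, 14 to 21, chr2:152344039-152344046): TGATGtAA
Asns (C/EBP-ATF, -23 to -16, chr6:7693225-7693232): TGATGaAA

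Longer stretches are printed for 5 members: Hsp90b1 and Creld2, chaperones with an ERSE, Canx and Herpud1 from the 6 members above, and Chac1, the ATF4 target with the largest estimate. Each reads 5′ to 3′ on the strand of the gene, from 250 bases before the start, and capitals mark the fixed letters of the matches named above, read on that strand. Stretches of Hsp90b1 and Chac1 end at 71 and 21 bases before the start, where annotated exons begin nearby.
Hsp90b1 (chr10:86705515-86705694, minus strand): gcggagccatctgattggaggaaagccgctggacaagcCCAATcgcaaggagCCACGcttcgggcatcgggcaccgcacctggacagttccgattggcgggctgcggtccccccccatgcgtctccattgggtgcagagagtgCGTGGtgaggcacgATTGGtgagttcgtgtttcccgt
Creld2 (chr15:88819396-88819645, plus strand): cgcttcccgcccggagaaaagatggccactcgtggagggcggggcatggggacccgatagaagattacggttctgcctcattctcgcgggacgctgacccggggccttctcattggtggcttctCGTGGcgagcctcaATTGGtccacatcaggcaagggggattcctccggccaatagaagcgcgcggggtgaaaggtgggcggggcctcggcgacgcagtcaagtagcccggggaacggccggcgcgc
Canx (chr11:50325674-50325923, minus strand): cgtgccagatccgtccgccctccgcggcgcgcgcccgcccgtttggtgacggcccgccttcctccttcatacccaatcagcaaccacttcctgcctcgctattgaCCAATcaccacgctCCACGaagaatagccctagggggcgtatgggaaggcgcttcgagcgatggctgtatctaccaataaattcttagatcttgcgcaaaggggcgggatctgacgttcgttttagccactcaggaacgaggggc
Herpud1 (chr8:94386179-94386428, plus strand): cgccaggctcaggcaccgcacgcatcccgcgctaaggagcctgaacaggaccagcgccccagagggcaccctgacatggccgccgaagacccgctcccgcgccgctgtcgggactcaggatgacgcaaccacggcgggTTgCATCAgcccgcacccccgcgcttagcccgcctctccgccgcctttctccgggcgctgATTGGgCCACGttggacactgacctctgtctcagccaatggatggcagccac
Chac1 (chr2:119350992-119351221, plus strand): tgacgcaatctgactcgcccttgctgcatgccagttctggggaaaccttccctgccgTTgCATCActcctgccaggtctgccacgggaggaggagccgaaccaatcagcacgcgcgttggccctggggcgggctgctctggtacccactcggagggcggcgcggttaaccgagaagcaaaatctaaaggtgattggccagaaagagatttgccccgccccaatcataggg

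Among the chaperones and foldases, levels per kilobase of annotated exon in sgRosa26 were highest for calreticulin (Calr, 4672 ± 137, SD, n = 4) and GRP94 (Hsp90b1, 4460.3 ± 560.2), lectin and HSP90-type chaperones whose levels did not differ beyond their spread. BiP (Hspa5), the HSP70 of the ER that also holds the sensors inactive, followed at 2850.2 ± 489 normalized counts per kilobase, and the disulfide isomerase Pdia3 at 2558 ± 77.8, again within the spread. At the low end of the branch were the BiP co-chaperones Dnajb9 (328 ± 63.6) and Sdf2l1 (355 ± 117), whose levels per kilobase also overlapped.

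BiP did not separate the groups. Hspa5 (Entrez 14828, chr2:34772090-34776529) stood at 12846, 11031, 8386 and 10535 normalized counts in sgRosa26 libraries A to D and 12582, 14969.9, 11780.4, 13169.5 and 8622 in sgCcnd1 libraries E to I. The lowest values were in C and I, from different groups, and the highest was in F. Group means were 10699.7 ± 1835 (SD, n = 4) and 12225 ± 2331 (SD, n = 5), giving a log2 fold change of 0.19 (SE 0.16, limma p = 0.266, adjusted p = 0.690, exact permutation p = 0.333) and a 95% interval from -0.16 to 0.53. The estimate depended on single libraries, at 0.074 without C, 0.11 without F, 0.28 without A and 0.31 without I.

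Calnexin was the chaperone with the smallest p, which stayed under 0.05 in 8 of 21 alternatives and not with quantile normalization, a common 75th percentile, robust variance or edgeR. Canx (Entrez 12330, chr11:50293957-50325673), a membrane-bound lectin that holds newly made glycoproteins, stood at 5446, 5435, 5409.9 and 5811 normalized counts in sgRosa26 libraries A to D and 5981, 6147, 5934, 6795 and 6294 in sgCcnd1 libraries E to I. All 5 sgCcnd1 libraries lay above the highest control, by a small margin in G. Means were 5526 ± 191 (SD, n = 4) and 6230.2 ± 346 (SD, n = 5), giving a log2 fold change of 0.17 (SE 0.08, limma p = 0.0424, adjusted p = 0.437, exact permutation p = 0.00794). That exact p is the smallest possible with 4 against 5 libraries. Dnajc3 (Entrez 100037258, chr14:118937932-118981702), the p58IPK co-chaperone of BiP, stood at 3861, 3412, 3059.7 and 3392 normalized counts in sgRosa26 libraries A to D and 3641, 3651, 3943, 3916 and 3639 in sgCcnd1 libraries E to I. The groups overlapped, and the comparison gave a log2 fold change of 0.14 (SE 0.08, limma p = 0.127, adjusted p = 0.566, exact permutation p = 0.0556). Dnajc3 was at 0.082 without C, and without A it was under an unadjusted limma p of 0.05.

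For the other 11 chaperones the log2 fold change lay between -0.08 (Manf) and 0.16 (Hyou1), and the groups overlapped in each. Manf, a secreted ER-stress factor, had a 95% interval of -0.58 to 0.42, and Hyou1, the large HSP70-like partner of BiP, of -0.30 to 0.62. Hyou1 was at 0.011 without C, 0.098 without E, 0.084 without F, 0.089 without H and 0.35 without I. The disulfide isomerases were at -0.01 (Pdia3), 0.05 (Pdia4) and 0.12 (Pdia6) on the log2 scale, and Pdia6 was at 0.18 without B, 0.036 without C and 0.054 without F. GRP94 was at 0.08 and calreticulin at -0.02. The BiP co-chaperones Dnajb9, Dnajb11 and Sdf2l1 were at 0.08, 0.10 and 0.15, and Creld2, a disulfide isomerase-like ER protein, at -0.07. Hsp90b1 and Manf share 14.7% and 6.74% of their exon length with other annotated genes on the opposite strand. Limma adjusted p-values of the 11 ranged from 0.705 (Pdia6) to 0.976 (Pdia3).

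**Figure D2:**
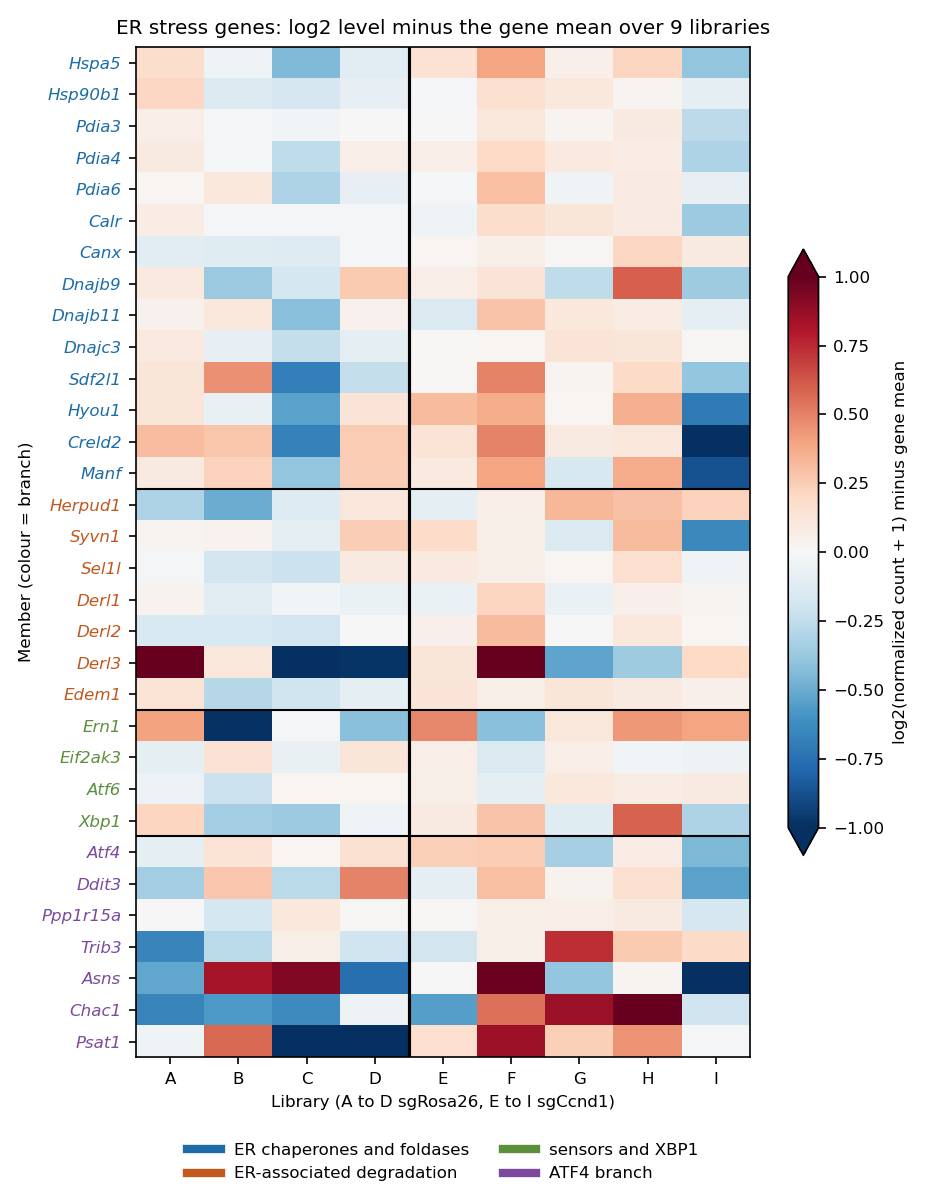
Level of each of the 32 members (rows, coloured by branch) in each library (columns, 4 of sgRosa26 on the left and 5 of sgCcnd1 on the right), as log2(normalized count + 1) minus the mean of the gene over the 9 libraries. Of 14 chaperones all are below their mean in C, 12 are in I, with Canx and Dnajc3 above, and all are above it in F and H, and the rows of Derl3, Asns and Psat1 vary most.

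Most chaperones varied between animals in a like way that crossed the groups. In C all 14 lay below their own mean over the 9 libraries, in I 12 of 14 did, with Canx and Dnajc3 above it, and in F and H all 14 lay above it. Library F of sgCcnd1 was the highest in 10 of 14 chaperones, C of sgRosa26 the lowest in 7 and I of sgCcnd1 the lowest in 6. Their mean deviation from the gene means (log2) was -0.32 in C, -0.34 in I and 0.26 in F. Creld2, for example, stood at 601, 586, 303 and 577 normalized counts in sgRosa26 libraries A to D and 532, 684, 515, 525 and 241 in sgCcnd1 libraries E to I. C and I had the lowest values of Creld2, and the same 2 libraries were the lowest for Manf and Hyou1. Manf stood at 1804, 1982, 1284 and 2008 normalized counts in sgRosa26 libraries A to D and 1806, 2220.2, 1515, 2186 and 924 in sgCcnd1 libraries E to I. Hyou1 stood at 3328, 2908, 2114 and 3351 normalized counts in sgRosa26 libraries A to D and 3810.2, 3967, 3105, 3908 and 1871 in sgCcnd1 libraries E to I. In C and I, depth was 16.6 and 10.8 M reads, T and NK cell markers deviated by 1.06 and -0.84 (log2), and clock genes by 0.04 and 0.11. The part of depth, other cells or time of day in the pattern was not tested.

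Relations between Hspa5 and the other 31 members were computed on the log2 scale over the animals. C and I stood apart from the other 7 libraries in Hspa5, so r over the 7 is given first. Over these 7, Pearson's r with Hspa5 was 0.88 for Pdia3, 0.78 for Pdia4, 0.75 for Hyou1 and 0.72 for Xbp1. In 0 of 31 did the exact permutation test pass after adjustment over the 31 (smallest adjusted p = 0.0923, for Pdia3, Derl1 and Eif2ak3). Eif2ak3, which encodes PERK, had r = -0.91 over the 7 but -0.14 over all 9 libraries. Derl1 was at 0.89 over the 7 and 0.47 over all 9. Over all 9 libraries 9 of 31 passed, 8 chaperones and Xbp1, and none of these calls held over the 7. Without H alone, 4 of 31 passed (Pdia4, Hyou1, Creld2 and Xbp1). Without C and I, r went from 0.86 to 0.43 for Creld2, from 0.80 to 0.35 for Manf and from 0.84 to 0.54 for Sdf2l1. For the other 6 of the 9 it was 0.72 to 0.88 over the 7, where fewer libraries enter the test. Over all 9 libraries r was 0.93 for Pdia4 (exact permutation adjusted p = 0.0141) with Spearman's rho 0.80 (exact permutation adjusted p = 0.0612). Over the same 9, r was 0.81 for Xbp1 (exact permutation adjusted p = 0.0332) and rho 0.90 (exact permutation adjusted p = 0.0314). With rho over the 9, 2 of 31 passed, Pdia3 and Xbp1. Herpud1 was at r = 0.02 over 9 and 0.18 over 7 (exact permutation adjusted p = 0.981 over 9).

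**Figure D3:**
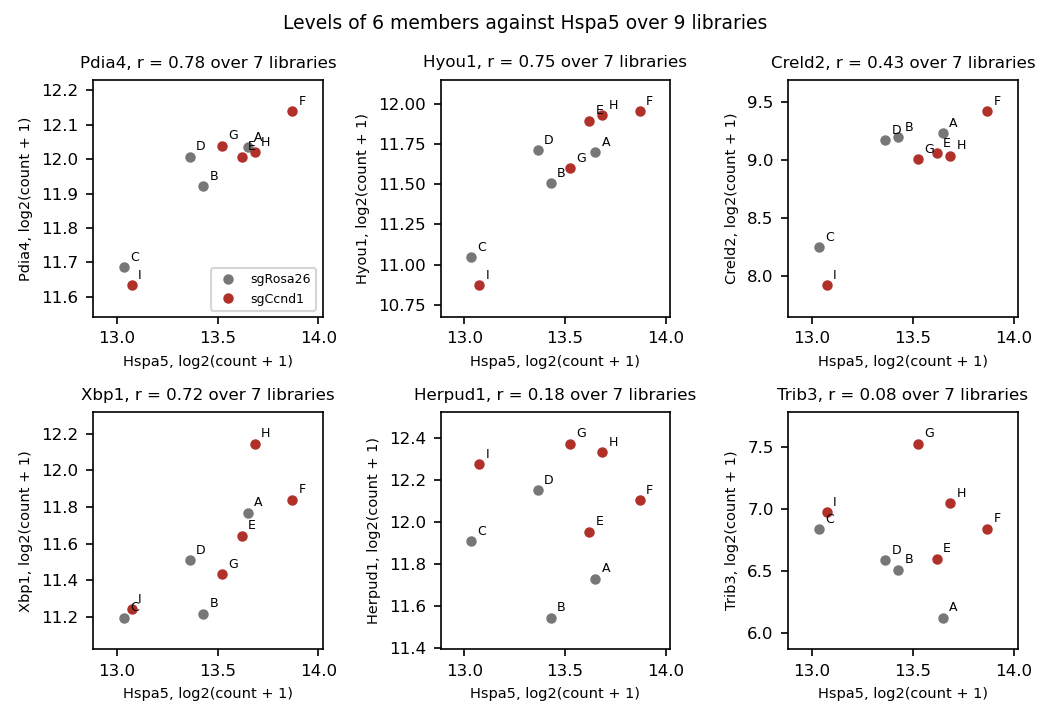
Level of 6 members (y axes) against Hspa5 (x axes), both as log2(normalized count + 1), 1 point per library, grey for sgRosa26 and red for sgCcnd1. Libraries C and I lie apart at the lower left for Pdia4, Hyou1, Creld2 and Xbp1, and the r above each panel, from 0.08 (Trib3) to 0.78 (Pdia4), leaves them out.

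Genes of ER-associated degradation had 3 of the 6 members with an unadjusted p under 0.05. Herpud1 (Entrez 64209, chr8:94386429-94395371), a membrane protein that assembles the ubiquitin ligase complex of the ER, stood at 3392, 2983, 3841 and 4547 normalized counts in sgRosa26 libraries A to D and 3962, 4400.0, 5298, 5154 and 4947 in sgCcnd1 libraries E to I. Libraries G, H and I of sgCcnd1 lay above the highest control, and E and F within the range of the controls. Means were 3691 ± 669.8 (SD, n = 4) and 4752 ± 558 (SD, n = 5), giving a log2 fold change of 0.37 (SE 0.13, limma p = 0.0120, adjusted p = 0.334, exact permutation p = 0.0476). In library I, the lowest in 6 of 14 chaperones, Herpud1 was above all controls.

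Derl2 (Entrez 116891, chr11:71007440-71019841), a derlin of the channel through which misfolded protein leaves the ER, stood at 1959.9, 1958, 1912 and 2175 normalized counts in sgRosa26 libraries A to D and 2262, 2719.7, 2188, 2351 and 2208 in sgCcnd1 libraries E to I. All 5 sgCcnd1 libraries lay above the highest control, D, and the lowest of them, G, by little. Means were 2001 ± 118 (SD, n = 4) and 2346 ± 218 (SD, n = 5), giving a log2 fold change of 0.23 (SE 0.08, limma p = 0.0202, adjusted p = 0.365, exact permutation p = 0.00794). Derl2 shares 231 bases of annotated exon (5.37% of its exon length) with Mis12 on the opposite strand, and whether counting used strand is not given in the sources used here. Edem1 (Entrez 192193, chr6:108824045-108859356), a lectin-like protein that hands misfolded glycoproteins to degradation, stood at 3172, 2372, 2514 and 2707 normalized counts in sgRosa26 libraries A to D and 3155, 3012, 3146, 3068 and 2985 in sgCcnd1 libraries E to I. Control A was the highest of all, so the groups overlapped although the other 3 controls lay below every sgCcnd1 library. Means were 2691 ± 349 (SD, n = 4) and 3073 ± 76.9 (SD, n = 5), giving a log2 fold change of 0.20 (SE 0.09, limma p = 0.0440, adjusted p = 0.444, exact permutation p = 0.0635).

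Members of the core ligase complex had smaller estimates. Its adaptor Sel1l was at 0.14 on the log2 scale and the ligase itself, HRD1 (Syvn1), at -0.10 (limma adjusted p = 0.563 and 0.855). Derl1 was at 0.07 (limma adjusted p = 0.771), and at 0.025 without F. Derl3 (Entrez 70377, chr10:75893398-75895941), a stress-induced derlin also expressed in plasma cells, was low and the most variable member, at 68.9, 28.0, 12.2 and 12.6 normalized counts in sgRosa26 libraries A to D and 28.2, 55.5, 17.6, 19.99 and 29.8 in sgCcnd1 libraries E to I. The highest values were in A and F, 1 of each group, and the lowest rested on 13 reads. Its 95% interval, -0.79 to 1.25 on the log2 scale, spans 0.

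**Figure D4:**
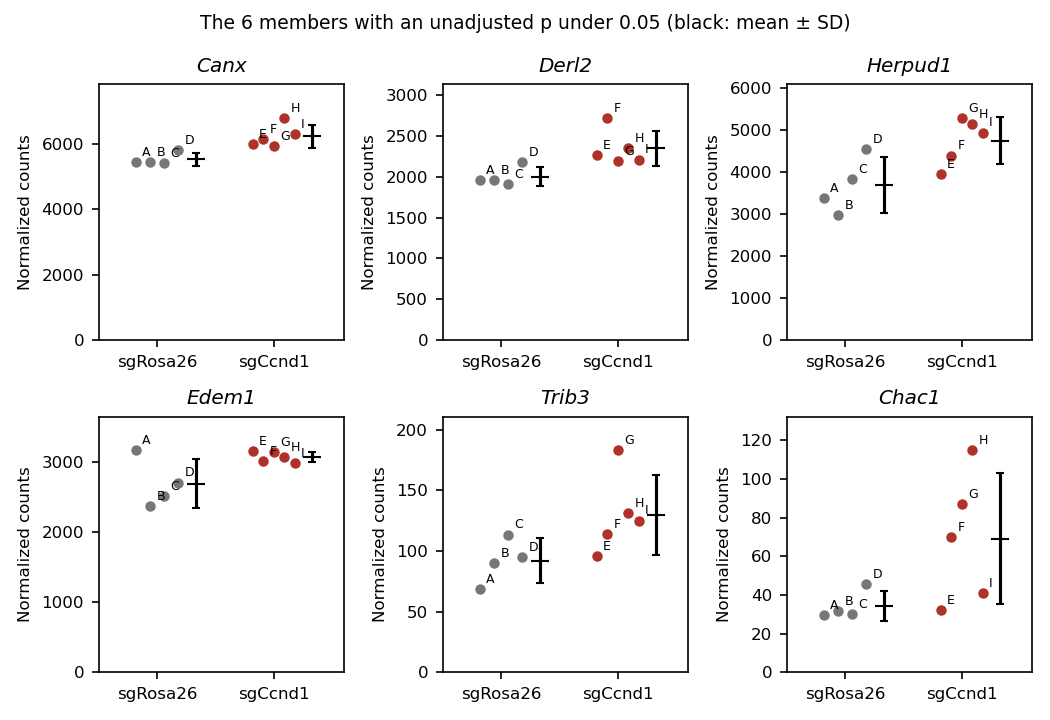
Normalized counts (y axes, from 0) of the 6 members with an unadjusted p under 0.05, 1 point per library, with the mean ± SD of each group in black. In Canx and Derl2 all sgCcnd1 points lie above the controls, and in Herpud1, Edem1, Trib3 and Chac1 the groups overlap.

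Of the sensors, Ern1 had the largest estimate and a wide spread. Ern1 (Entrez 78943, chr11:106397620-106487796) stood at 909.9, 347, 681 and 516 normalized counts in sgRosa26 libraries A to D and 961, 516, 744, 932 and 907 in sgCcnd1 libraries E to I. Controls ranged from B, the lowest of all, to A, within the sgCcnd1 range. Means were 614 ± 240.1 (SD, n = 4) and 812 ± 186 (SD, n = 5), giving a log2 fold change of 0.46 (SE 0.25, limma p = 0.0938, adjusted p = 0.526, exact permutation p = 0.175). The Ern1 estimate was 0.21 without B, and it was 0.67 without A and 0.61 without F, both under an unadjusted limma p of 0.05. Eif2ak3 was at -0.04 with a 95% interval of -0.24 to 0.16, and Atf6 at 0.11 with an interval of -0.07 to 0.28 (0.054 without B). Xbp1 (Entrez 22433, chr11:5520641-5525993) stood at 3489, 2378, 2342 and 2913 normalized counts in sgRosa26 libraries A to D and 3198, 3666, 2759.8, 4533 and 2423 in sgCcnd1 libraries E to I. It was highest in H, followed by F and A, and lowest in C, B and I. Means were 2780.4 ± 539.9 (SD, n = 4) and 3316 ± 825 (SD, n = 5), giving a log2 fold change of 0.24 (SE 0.17, limma p = 0.194, adjusted p = 0.636, exact permutation p = 0.302). The Xbp1 estimate was 0.12 without H and 0.14 with quantile normalization.

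In the ATF4 branch Chac1 and Trib3 were higher at an unadjusted p under 0.05, while Atf4 and Ddit3 had estimates near 0. Chac1 (Entrez 69065, chr2:119351242-119354326), a glutathione-degrading enzyme and target of ATF4, stood at 29.5, 31.6, 30.0 and 45.6 normalized counts in sgRosa26 libraries A to D and 32.02, 69.8, 87.1, 115 and 41.2 in sgCcnd1 libraries E to I. F, G and H lay above all controls, whereas E and I were within their range. Means were 34.2 ± 7.69 (SD, n = 4) and 69.0 ± 33.9 (SD, n = 5), giving a log2 fold change of 0.87 (SE 0.33, limma p = 0.0203, adjusted p = 0.366, exact permutation p = 0.0952). Counts were low, from 24 to 115 reads. Trib3 (Entrez 228775, chr2:152337425-152344060), a pseudokinase that restrains ATF4 and Akt, stood at 68.9, 90.3, 114 and 95.2 normalized counts in sgRosa26 libraries A to D and 96.1, 114, 183, 131 and 125 in sgCcnd1 libraries E to I. It was above all controls in F, G, H and I, by little in F, and within their range in E. Means were 92.0 ± 18.4 (SD, n = 4) and 129.7 ± 32.6 (SD, n = 5), giving a log2 fold change of 0.48 (SE 0.19, limma p = 0.0244, adjusted p = 0.380, exact permutation p = 0.0397). Without library G neither Chac1 nor Trib3 was under an unadjusted p of 0.05, and without library A Trib3 was not.

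Atf4 (Entrez 11911, chr15:80255184-80257545) stood at 1229.5, 1431.4, 1323 and 1447.04 normalized counts in sgRosa26 libraries A to D and 1541, 1554, 1038, 1370.4 and 957 in sgCcnd1 libraries E to I. The highest values, in E and F, and the lowest, in I and G, were all in sgCcnd1. Means were 1358 ± 102 (SD, n = 4) and 1292 ± 280.3 (SD, n = 5), giving a log2 fold change of -0.10 (SE 0.14, limma p = 0.513, adjusted p = 0.838, exact permutation p = 0.556) and a 95% interval of -0.41 to 0.22. Ddit3 (Entrez 13198, chr10:127290793-127296291), the gene of CHOP, stood at 66.4, 103, 70.4 and 120.4 normalized counts in sgRosa26 libraries A to D and 79.3, 105, 87.1, 94.96 and 58.2 in sgCcnd1 libraries E to I. The groups overlapped throughout, and the comparison gave a log2 fold change of -0.07 (SE 0.21, limma p = 0.759, adjusted p = 0.934, exact permutation p = 0.802). Ddit3 shares 7.64% of its annotated exon length with Mars, the methionyl-tRNA synthetase gene, on the opposite strand, so reads of the pair may not be told apart. Ppp1r15a, encoding GADD34, which directs dephosphorylation of eIF2α, varied little, from 160.4 to 195 normalized counts (log2 fold change 0.03, 95% interval -0.19 to 0.24).

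The amino acid synthesis genes of the branch were low in this tissue, as were some of its other genes. In sgRosa26 the mean of Asns was 92.8 normalized counts, near Trib3 (92.0) and Ddit3 (89.9) and above Chac1 (34.2). Asns, asparagine synthetase, stood at 51.6, 133, 143 and 43.7 normalized counts in sgRosa26 libraries A to D and 74.7, 148, 56.8, 76.0 and 34.1 in sgCcnd1 libraries E to I. B, C and F were high and D and I low, without regard to group, and the 95% interval of the log2 fold change was -1.14 to 0.70. Psat1, of serine synthesis, was the lowest member per kilobase (3.25 ± 2.08 in sgRosa26, SD, n = 4), with 5 to 24 reads per library and an estimate of 0.76 on the log2 scale (limma adjusted p = 0.484).

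Another 159 genes of the pathway were listed, of which 152 were tested. At an unadjusted limma p under 0.05, 17 were higher and 4 lower, where 5.22% and 5.74% of all genes were, and 0 passed after adjustment over all genes. Their log2 fold change was above 0 in 111 of 152, against 52.9% of all genes, with a median of 0.09. Without H, 13 were higher and 3 lower, and 108 were above 0. Among 29 degradation and ubiquitin genes 4 were higher and 0 lower, and 24 were above 0, or 3, 0 and 21 without H. Vcp, the ATPase that pulls substrates out of the ER, was at 0.24 on the log2 scale, the deglycosylating enzyme gene Ngly1 at 0.26 and Selenos, a selenoprotein of the Derlin complex, at 0.44. For each of these 3, all 5 sgCcnd1 libraries lay above all controls (limma adjusted p = 0.282, 0.306 and 0.334), as for 1.92% of all genes. Vcp stood at 3194, 3126, 3328 and 3148 normalized counts in sgRosa26 libraries A to D and 3862, 3649, 3772, 4002 and 3628 in sgCcnd1 libraries E to I.

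Of 23 other folding and disulfide enzymes 4 were higher (3 without H) and 0 lower, with the smallest p for the ER oxidase Ero1b (0.39) and the thioredoxin-like membrane proteins Tmx4 (0.51) and Tmx1 (0.28). Of 37 translocation and N-glycosylation genes 4 were higher and 0 lower, and without H 2 were higher. The smallest p among them belonged to the translocon subunit gene Sec62 (0.22), the translocon-associated Ssr3 (0.18) and the oligosaccharyltransferase subunit Stt3b (0.20). In 26 genes of sensors, processing and eIF2, 1 was higher and 2 lower, also without H. Ppp1r15b, the constitutive eIF2α phosphatase subunit, was at 0.39, Creb3l1, an ATF6-like factor, at -0.64 and Eif2b3, of the eIF2B complex, at -0.38.

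The 37 other ATF4 and integrated stress response targets were mixed, with 4 higher and 2 lower, or 4 and 1 without H. Slc1a4, a neutral amino acid transporter, stood at 118, 138, 92.9 and 125 normalized counts in sgRosa26 libraries A to D and 85.4, 68.9, 54.8, 72.0 and 35.5 in sgCcnd1 libraries E to I. All 5 sgCcnd1 libraries lay below the controls (log2 fold change -0.94, limma adjusted p = 0.250), as for 1.97% of all genes. In the other direction the glycine transporter Slc6a9 was at 0.43 and Cebpg, a partner of ATF4, at 0.29 (limma adjusted p = 0.300 and 0.306). For Cebpg and for the methionyl-tRNA synthetase gene Mars1 (0.25), all 5 sgCcnd1 libraries lay above the controls, as for 1.92% of all genes.

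Lists of related states were read in the same fit, where 5.22% of all genes were higher and 5.74% lower at an unadjusted p under 0.05. Without H these shares were 3.72% and 4.28%. Of 14 cytosolic and mitochondrial heat shock genes 4 were higher (3 without H) and 0 lower at an unadjusted limma p under 0.05, with a median of 0.20. Hsp90aa1 was at 0.27, Hspd1 at 0.26 and Hspa1b at 0.60. For Hsp90aa1 all 5 sgCcnd1 libraries lay above all controls, as for 1.92% of all genes. Of 18 clock genes 5 were higher and 2 lower, also without H. Npas2 was lower in all 5 sgCcnd1 libraries than in any control (-1.29), as for 1.97% of all genes. Nr1d2 (0.44) and Ciart (1.07) were higher, with groups that overlapped. Of 13 fasting-induced genes 1 was higher and 0 lower, with Angptl4 at 0.97, and without H 0 were higher. Immediate early genes had 0 of 16 higher and 2 lower (1 without H), with a median of -0.30, and the smallest p for Klf2 (-0.41), Myc (-0.75) and Fos (-0.68). Klf2, like Npas2, was lower in all 5 sgCcnd1 libraries than in any control. The part of these states in the levels of ER stress genes was not tested.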

How the data were processed

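Gene-level values came from 1 deposited table of normalized counts for 9 liver libraries. The submitters' processing notes name Trim Galore 0.6.7, HISAT2 2.2.1, featureCounts 2.0.3, DESeq2 2.11.40.8 (a wrapper version) and build mm10, with no role or order. The deposited signal is a never-negative normalized count: in each library 100% of values were whole multiples (within 0.01) of 1 number, so reads were divided by 1 size factor per library. For library H that number was near 1 (0.9996), and edgeR and DESeq2 on recovered reads were repeated on the other 8 libraries. The relations with Hspa5, which used the deposited normalized counts, were also repeated without H. These alternatives were chosen after the data were seen. The use of strand and the annotation release are not given in the sources used here. Rows without a symbol, 1319 of 27179, stayed in the fit.

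From these values log2(normalized count + 1) was tested with limma 3.58.1 in R 4.3.3 (intensity trend, two-sided, no covariates) on 12993 genes that averaged 10 or more, with Benjamini-Hochberg adjustment over all of them and a threshold of 0.05. The added 1 shrinks log2 differences of low counts, but estimates of low genes were not always smaller than with DESeq2. Limma and DESeq2 gave 0.23 and 0.0019 for Derl3 and 0.76 and 0.66 for Psat1. For Chac1 they gave 0.87 and 1.01, and for Asns -0.22 and -0.26. Single values had exact permutation tests over the 126 splits into 4 and 5 libraries, with no p below 0.00794, and relations exact permutation tests over all pairings, all two-sided. Alternatives were edgeR 4.0.16 and DESeq2 1.42.0 on recovered reads, other pseudocounts, filters and scalings, and leaving out each library. The fits were also run on simulated counts, and no result given here rests on that run. Nothing in the labels names a batch, and p-values measure the spread between these animals. Exon lengths came from GENCODE M21 (GRCm38), coordinates and promoters from RefSeq GRCm38.p6. The 32 genes and the lists were chosen with earlier results of these data known. Values are given for members under an unadjusted p of 0.05 or without overlap, the 2 of each branch with the smallest p, and Hspa5, Xbp1, Atf4 and Ddit3, and up to 3 genes of each other list. Others were chosen after their values were seen. Figures were drawn with matplotlib 3.10.9.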

Additional observations from a re-analysis of the deposited data

Results flagged for a closer look

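Of 64 groups of member values examined, 6 had a library whose gap to its nearest neighbour took an unusually large share of the range of the group, where chance gives about 3.2. In sgRosa26, library C was lowest for Creld2, at 303 normalized counts against 577 to 601, and for Dnajb11, at 1147 against 1573 to 1656. Library D was highest for Canx, at 5811 against 5409.9 to 5446, and for Chac1, at 45.6 against 29.5 to 31.6. Library A was highest for Calr, at 10653 against 10046 to 10069. In sgCcnd1, library F was lowest for Atf6, at 1276 against 1423 to 1470.5. Causes were not tested.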

How the results depend on the processing

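No paired analysis was possible because the animal numbers in the deposited table match no replicate number of the labels. In 21 alternatives 0 members passed after adjustment (adjusted p from 0.152, for Chac1 with DESeq2), and 16 of 32 members kept their sign. Leaving out each library gave 3 to 6 members higher at an unadjusted p under 0.05, against 6, and 0 lower, where 3.72% to 6.97% of all genes were higher. In the same fits the chaperone median ranged from -0.0045 to 0.15, below 0 without C. Signs turned with quantile normalization for Hsp90b1 (-0.0045) and Pdia4 (-0.032), and with array weights for Pdia3 (0.0093), Calr (0.0024), Creld2 (0.055) and Manf (0.015). Quantile normalization also lowered Canx (0.079), Dnajc3 (0.037), Pdia6 (0.027), Hyou1 (0.073), Sel1l (0.072), Derl1 (0.035), Edem1 (0.13) and Atf6 (0.055) by over 1.5 times, as did a pseudocount of 10 for Psat1 (0.40). Without H, Dnajb9 was at -0.070 with edgeR and -0.066 with DESeq2. Ranges over fits that left out a library crossed 0 for Pdia3 (-0.040 to 0.055), Pdia4 (-0.020 to 0.14), Calr (-0.063 to 0.072), Dnajb9 (-0.058 to 0.19), Dnajb11 (-0.021 to 0.16), Sdf2l1 (-0.046 to 0.33), Creld2 (-0.31 to 0.17), Manf (-0.22 to 0.13), Syvn1 (-0.19 to 0.049), Derl3 (-0.069 to 0.73), Eif2ak3 (-0.080 to 0.00038), Atf4 (-0.17 to 0.0039), Ddit3 (-0.20 to 0.088), Ppp1r15a (-0.027 to 0.072) and Asns (-0.51 to 0.052). The cause was not tested. With a minimum mean of 100, 5 low members left the fit. Depth limits Psat1, Derl3, Chac1 and Asns most, which had 5, 13, 24 and 24 reads in their lowest library. Precision from depth covers counting error only.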
